A study of Mus musculus with 14 samples.

Results

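The comparison set bladder urothelium of Dnmt1cKO mouse embryos against that of Cre-negative littermates, gene by gene. Of 20308 gene symbols in the deposited table, 13011 passed the filter on low counts and were tested. The Dnmt1cKO group (n = 5) had the genotype Shhcre/+; Dnmt1flox/flox. The Cre-negative littermates (n = 7) lacked Cre, and the labels do not give their Dnmt1 alleles. Cre-positive controls (n = 2) carried Shhcre/+ with 1 floxed Dnmt1 allele; they entered the joint fit, and with it the filter, the scaling and the estimate of spread, and appear below as values beside a result. All embryos were on a C57BL/6; 129S4 background at embryonic day 15.5. Shhcre expresses Cre from the Shh locus, which is active in the epithelium of the urogenital sinus, and it replaces the function of 1 Shh allele. Dnmt1cKO embryos therefore differed from the littermates both in Dnmt1 and in the Cre and Shh alleles, and in this comparison those differences cannot be told apart.

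The urothelium is the stratified epithelium that lines the bladder. DNMT1 is the maintenance methyltransferase that copies CpG methylation onto newly made DNA strands at each cell division. In somatic tissues of the mouse, DNA methylation keeps many germline genes, X-linked reproductive genes and 1 allele of imprinted genes silent, and cells that divide without DNMT1 lose the mark passively. No methylation was measured in these libraries.

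Each library was made from a lysate of tissue pooled from several embryos after trypsin had separated epithelium from stroma, so the p-values below rest on how much such pools vary. Total expected counts ran from 2520509 to 9573007 in Dnmt1cKO and from 3111972 to 12958881 in Cre-negative libraries. Of the tested genes, 1549 to 3808 had 0 counts in a Dnmt1cKO library and 879 to 2800 in a Cre-negative library. The 17 genes used as urothelium markers are not all specific to it, and Krt19 is also in the mesothelium list. Each Dnmt1cKO library had counts for at least 16 of them, with Upk2 at 0 in Dnmt1cKO 3 and Pparg at 0 in Dnmt1cKO 5. Each Cre-negative library had counts for all 17. The summed level of these markers was 5627 to 16608 CPM in Dnmt1cKO and 12100 to 20782 CPM in Cre-negative libraries; in bulk tissue fewer cells of a type and less RNA per cell cannot be told apart, here or in the results that follow. Levels are CPM, counts per 1000000 counts of a library, scaled between libraries by TMM and not corrected for gene length. The Y-linked genes of the Cre-negative 2 pool summed to 2.39 CPM, against 218 to 373 CPM in the other Cre-negative libraries.

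Dnmt1, the targeted gene, measured 9.99, 26.7, 123, 31.2 and 49.1 CPM in Dnmt1cKO libraries 1 to 5. In Cre-negative libraries its lowest, median and highest values were 41.3, 138 and 192 CPM. Dnmt1cKO 3 stood inside the Cre-negative range, as did Dnmt1cKO 5, and the other Dnmt1cKO libraries stood below it. The log2 fold change was -1.31 ± 0.52 (SE) and did not pass the edgeR quasi-likelihood test (adjusted p = 0.249; without Dnmt1cKO 3, a log2 fold change of -1.998 with adjusted p = 0.0531). Counts are per gene, and exons outside the floxed part can still give reads from a recombined allele. Because the deleted exons were not counted apart, the gene's total does not measure how complete recombination was.

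By edgeR's test with Benjamini-Hochberg adjustment over all 13011 genes, 119 genes were higher and 24 lower in Dnmt1cKO urothelium at an adjusted p under 0.05, which is 0.915% and 0.184% of the genes tested (1.10% together). Before adjustment, 867 genes lay higher and 915 lower with p under 0.05. The median log2 fold change over all genes was -0.035, and 47.9% of values were positive. The shares called and positive over all genes are the background for each list count below. The changes that passed were therefore few and, among those higher, large: 69 of the 119 had a log2 fold change of 5 or more, 36 lay between 2 and 5, and 14 were under 2. Of the 24 lower genes, 11 were at -5 or below, 3 lay between -2 and -5 and 10 were above -2. These are fitted values, which do not measure the size of a fold where a group had almost no counts. Over the Cre-negative group 21 of the higher genes had 0 counts and 19 had 1 to 3. Over the Dnmt1cKO group 3 of the lower genes had 0 counts and 4 had 1 to 3.

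**Figure D1:**
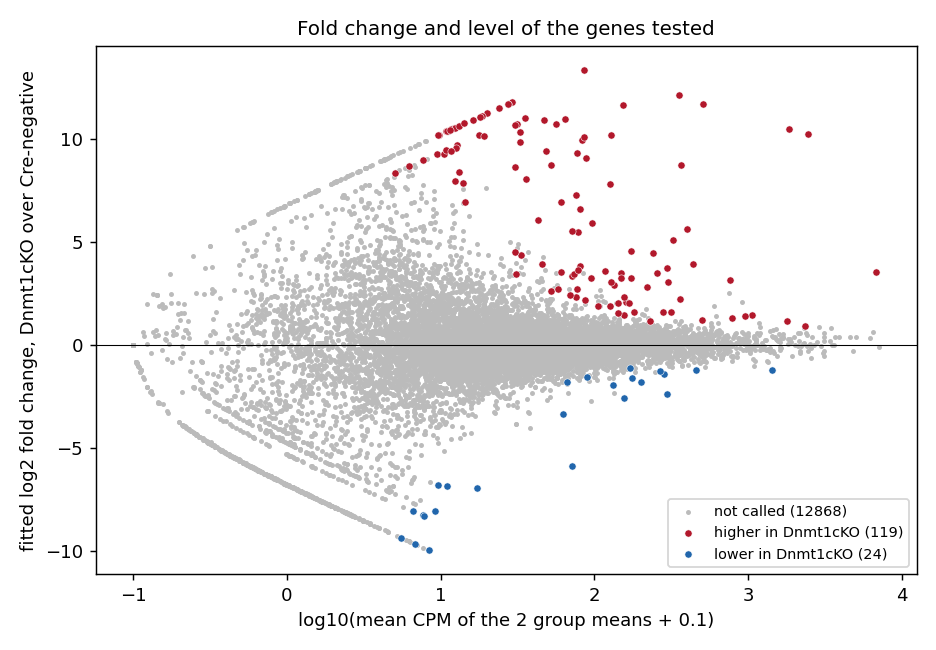
Fitted log2 fold change (Dnmt1cKO over Cre-negative, y axis) against log10 of the mean CPM of the group means plus 0.1 (x axis) for the 13011 genes tested. The 119 higher genes (red) reach log2 fold changes above 10, the 24 lower genes (blue) lie between -1.13 and -9.98, and the lines of points at the left are genes with 0 counts in all libraries of 1 group.

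Many of the higher genes were at or near 0 in Cre-negative urothelium. Of the 119, 21 had 0 counts in all 7 Cre-negative libraries, 19 had 1 to 3 counts over the group and 79 had more. A gene without counts in the littermates could not be called lower, and it passed the filter through Dnmt1cKO or control libraries. Among all genes tested, 156 had 0 counts in every Cre-negative library and 500 had 0 counts in every Dnmt1cKO library. In 69 of the 119 genes all 5 Dnmt1cKO libraries stood above all 7 Cre-negative ones, a pattern found in 0.861% of all genes tested. The pattern was spread over the knockout libraries: of the 119 genes, 102, 107, 109, 111 and 103 exceeded the highest Cre-negative value in Dnmt1cKO libraries 1 to 5. Dnmt1cKO 3, the library with the most Dnmt1 RNA of the group, was above it in 109.

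Germline genes silenced by methylation are known to have CpG-dense promoters. Start-site regions from RefSeq (GRCm38.p6, 250 bases before to 50 after the start) were present for all 14 called members of the testis paralog, genome-defence and meiosis lists described below. They held a median of 16 CpG (10 to 28) in 300 bases, against a median of 7 over the 27025 promoters of the table, of which 44.1% held 10 or more. The 36 of 40 tested members of those lists with a promoter in the table, called or not, had a median of 18 (2 to 38). Promoters were present for 75.4% of the tested, 68.9% of the higher and 75% of the lower genes. Sets under 80% were given no values, so CpG density was not compared between higher and lower genes. The promoters of the table include those of genes not tested. CACGTG, the E-box that MAX and MGA bind, was present in 3 of the 14 (21.4%), in 36.1% of the 36 and in 7.22% of all promoters. GCGGGA, the core of the E2F6 site, read on both strands, was present in 8 of the 14 (57.1%), in 58.3% of the 36 and in 20.2% of all promoters. CACGTG is the same on both strands, sites of the 2 motifs can share at most 1 end base, and a match describes letters and shows no binding. The 250 bases before the start of 5 called genes are shown for the contrast between 4 CpG-dense promoters of germline genes and the sparser promoter of Trap1a, an X-linked tumour antigen gene. Capitals mark each CpG, and each sequence is read 5′ to 3′ on the strand of its gene. RefSeq and GENCODE M21 place these 5 starts within 16 bases of each other.
Dazl, chr17:50293621-50293870, minus strand, 20 CpG: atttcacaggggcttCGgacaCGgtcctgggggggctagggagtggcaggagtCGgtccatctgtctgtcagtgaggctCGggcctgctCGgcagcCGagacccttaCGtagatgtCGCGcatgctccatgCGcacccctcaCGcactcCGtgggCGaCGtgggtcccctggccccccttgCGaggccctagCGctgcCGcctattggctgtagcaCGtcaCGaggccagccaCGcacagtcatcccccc
Taf7l, chrX:134476491-134476740, minus strand, 14 CpG: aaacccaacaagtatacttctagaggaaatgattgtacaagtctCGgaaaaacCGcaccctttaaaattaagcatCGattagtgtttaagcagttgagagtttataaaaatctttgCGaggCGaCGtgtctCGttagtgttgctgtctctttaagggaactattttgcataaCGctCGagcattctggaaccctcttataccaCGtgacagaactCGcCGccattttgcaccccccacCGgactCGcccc
Slc25a31, chr3:40708621-40708870, plus strand, 18 CpG: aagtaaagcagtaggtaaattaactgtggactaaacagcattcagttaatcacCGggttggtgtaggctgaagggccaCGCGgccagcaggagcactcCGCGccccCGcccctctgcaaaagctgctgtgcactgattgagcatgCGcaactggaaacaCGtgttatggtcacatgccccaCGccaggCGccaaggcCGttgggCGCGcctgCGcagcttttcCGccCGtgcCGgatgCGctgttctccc
Tex19.1, chr11:121145893-121146142, plus strand, 15 CpG: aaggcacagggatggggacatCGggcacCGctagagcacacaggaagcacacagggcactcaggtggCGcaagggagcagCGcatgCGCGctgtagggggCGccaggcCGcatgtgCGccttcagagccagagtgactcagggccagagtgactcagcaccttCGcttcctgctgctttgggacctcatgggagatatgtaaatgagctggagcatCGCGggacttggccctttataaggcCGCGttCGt
Trap1a, chrX:139333433-139333682, plus strand, 7 CpG: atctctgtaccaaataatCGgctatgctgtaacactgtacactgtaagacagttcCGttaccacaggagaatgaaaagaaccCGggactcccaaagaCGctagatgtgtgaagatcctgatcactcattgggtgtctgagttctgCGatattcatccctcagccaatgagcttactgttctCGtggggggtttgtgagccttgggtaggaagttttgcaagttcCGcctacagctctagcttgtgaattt

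X-linked reproductive genes made up the largest listed group of higher genes. Of 29 tested members of the list of Rhox, Xlr and cancer-testis genes, 20 were higher and 0 lower, with a median log2 fold change of 8.96 (8.16 with silent genes set to their lower bound) beside -0.035 over all genes. The table held 59 members, of which 30 did not pass the filter, and 8 of the 29 tested had 0 counts in every Cre-negative library. Trap1a measured 985, 792, 873, 1242 and 1152 CPM in Dnmt1cKO libraries 1 to 5. Its Cre-negative lowest, median and highest values were 0.144, 0.341 and 0.519 CPM (a log2 fold change of 11.71 ± 0.47, edgeR adjusted p = 4e-15). All 5 knockout libraries held similar levels, and the groups were far apart. The controls held 2.07 and 11.2 CPM, above every littermate and far below every knockout library.

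The Rhox cluster on the X chromosome encodes homeobox proteins of the testis, ovary and placenta. Rhox6 measured 606, 432, 517, 1148 and 867 CPM in Dnmt1cKO libraries, against 0 to 0.255 CPM in Cre-negative ones (a log2 fold change of 12.13 ± 0.52, adjusted p = 1.26e-14). Rhox5, the founding member of the cluster, measured 398, 224, 197, 268 and 451 CPM, against 0 to 0.173 CPM (a log2 fold change of 11.64 ± 0.64, adjusted p = 1.86e-12). Both were high in every knockout library, with the lowest values in Dnmt1cKO 2 for Rhox6 and Dnmt1cKO 3 for Rhox5. With Cre-negative and control libraries as 1 group the log2 fold changes were smaller, 9.82 for Rhox6 and 7.35 for Rhox5, and both calls held. Rhox9 measured 203, 83.5, 83.5, 355 and 132 CPM and had 0 counts in all Cre-negative libraries, at least 3200-fold higher from the summed counts with 3 counts set as the floor over the Cre-negative group (adjusted p = 2.12e-08). Rhox4a measured 28.8, 89.9, 76.2, 133 and 141 CPM, with 2 counts over the Cre-negative group, a ratio of 2850 (95% counting interval 788 to 23500; adjusted p = 1.26e-07). Rhox2d ran from 0.722 to 61.9 CPM, with its lowest value in Dnmt1cKO 3, and had 0 Cre-negative counts (at least 639-fold higher, adjusted p = 0.00286). Rhox2 and Rhox4 genes are near-identical copies of one another, so reads could be divided between copies and a 0 for a single copy in 1 library cannot be read on its own. Rhox5, Rhox6 and Rhox9 had no near-identical partner in the table and lie within the cluster on chromosome X between 37804842 and 37901770 (GENCODE M21, GRCm38).

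Other X-linked members were less uniform. Tex13, a testis-expressed gene that was not placed in GENCODE M21, measured 95.6, 13.3, 66.6, 122 and 53.1 CPM in Dnmt1cKO libraries, with 1 count in all Cre-negative libraries together (ratio 3610, 95% counting interval 647 to 143000; adjusted p = 2.34e-06). Xlr4c, of the X-linked lymphocyte-regulated family, measured 54.5, 41.6, 425, 51.7 and 223 CPM, against 0 to 7.74 CPM (adjusted p = 0.00378). Xlr3c measured 75.3, 61.4, 189, 191 and 179 CPM, against 0 to 12.1 CPM (adjusted p = 0.00262). The lowest Dnmt1cKO value was above the highest Cre-negative value in each of these, while levels within the knockout group differed several-fold. Fmr1nb, a cancer-testis gene next to Fmr1, ran from 0.241 to 62.5 CPM, with its lowest value in Dnmt1cKO 3 (adjusted p = 0.0147). Counting all genes by position, chromosome X held 24 of the 119 higher genes (20.2%), beside 3.67% of the tested genes placed on a chromosome, and 5.04% of tested X-linked genes were higher. The Rhox2, Rhox4 and Xlr3 genes among the 24 include near-identical copies that can share reads, so these shares do not count independent genes. No X-linked gene was called lower by edgeR. On chromosome Y, 4 of 11 tested genes were higher, among them Rbmy, a spermatogenesis RNA-binding protein gene with near-identical copies (5.05 to 293 CPM against 0 to 0.382 CPM; adjusted p = 4.25e-07), and Uba1y (6.28 to 198 CPM against 0 to 0.289 CPM; adjusted p = 0.000121). The higher Y-linked genes other than Uba1y are near-identical copies of one another. The pooled lysates mix embryos whose sexes are not labelled, and the Y-linked sums differed between pools as given above.

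**Figure D2:**
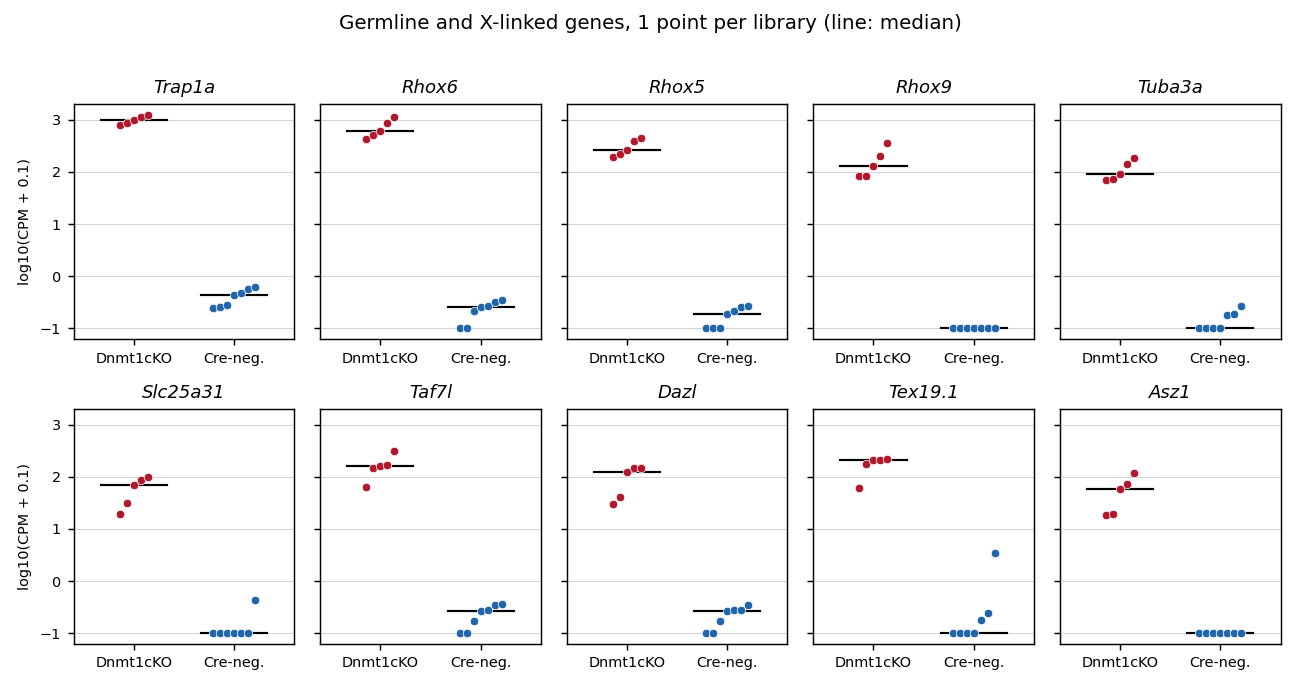
Level in each library, as log10(CPM + 0.1), of 10 X-linked and germline genes in Dnmt1cKO (red, n = 5) and Cre-negative (blue, n = 7) urothelium, with points in order of value and a line at the group median. In every panel all Dnmt1cKO points lie above all Cre-negative points, and Rhox9 and Asz1 are at 0 in every Cre-negative library.

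Testis paralogs of widely expressed genes were likewise higher. These genes encode germ cell versions of housekeeping proteins, and 7 of 10 tested members were higher and 0 lower, with a median log2 fold change of 10.52 (9.37 with lower bounds). The table held 32 members, and 4 of the 10 tested had 0 counts in every Cre-negative library. Taf7l, a paralog of a TFIID subunit of the transcription machinery, measured 319, 166, 64.7, 146 and 164 CPM in Dnmt1cKO libraries and 0 to 0.271 CPM in Cre-negative ones (a log2 fold change of 10.08 ± 0.72, adjusted p = 5.64e-10). Slc25a31, the ADP/ATP carrier of male germ cell mitochondria, measured 31.1, 68.4, 99.1, 19.6 and 85.7 CPM, with 1 count over all Cre-negative libraries (ratio 3850, 95% counting interval 689 to 152000; adjusted p = 1.09e-05). Both were high in every knockout library, and in neither did the groups overlap. With Cre-negative and control libraries as 1 group the log2 fold change of Taf7l was 7.45, and its call held. Tuba3a, a testis alpha-tubulin gene, measured 145, 71.6, 89.5, 73.2 and 182 CPM with 3 Cre-negative counts (ratio 2010, 95% counting interval 688 to 9770; adjusted p = 3.7e-08). Its near-identical copy Tuba3b measured 89.0, 67.8, 187, 110 and 191 CPM, also with 3 counts (ratio 2320, 95% counting interval 793 to 11300; adjusted p = 1.18e-08). The alpha-tubulin pair cannot be resolved from each other. Rpl39l, a ribosomal protein paralog, measured 47.1, 23.4, 64.5, 66.0 and 37.4 CPM and was at 0 in Cre-negative libraries (at least 896-fold higher, adjusted p = 0.000221). The others called were D1Pas1, a testis paralog of the RNA helicase DDX3 (adjusted p = 0.0114), and Rpl10l (adjusted p = 0.0147), which was at 0 in Dnmt1cKO 5.

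Genes of germline genome defence act in the piRNA pathway and in germ granules, where they keep transposons silent while methylation is reset. Of 26 listed members whose symbols the table held, 14 were tested, 4 were higher and 0 lower, and the median log2 fold change was 3.76. Asz1, an ankyrin-repeat protein of germ granules, measured 18.3, 19.4, 58.0, 119.9 and 73.9 CPM in Dnmt1cKO libraries and had 0 counts in all Cre-negative libraries (at least 1020-fold higher, adjusted p = 6.73e-05). Tex19.1, which restrains retrotransposons in germ cells and placenta, measured 209, 175, 61.3, 214 and 224 CPM, against 0 to 3.41 CPM (a log2 fold change of 9.08 ± 1.06, adjusted p = 5.42e-06). Dazl, the RNA-binding protein that licenses germ cells, measured 40.5, 124, 29.6, 146 and 145 CPM, against 0 to 0.255 CPM (a log2 fold change of 9.40 ± 0.93, adjusted p = 2.09e-07). None of the 3 overlapped between groups, and for Tex19.1 Dnmt1cKO 3 was well below the other knockout libraries. Mael, a piRNA pathway gene, measured 34.2, 29.7, 0.241, 21.99 and 29.1 CPM and was at 0 in Cre-negative libraries (at least 497-fold higher, adjusted p = 0.014), with a single count in Dnmt1cKO 3.

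Of 25 meiosis genes whose symbols the table held, 16 were tested, and 3 were higher and 0 lower, with a median log2 fold change of 3.67. Mnd1, a partner of the recombinases that pair homologous chromosomes, measured 394, 71.2, 293, 523 and 76.1 CPM, against Cre-negative values of 5.50 to 39.4 CPM (a log2 fold change of 3.47 ± 0.50, adjusted p = 0.000106). Stra8, the retinoic-acid-induced gene of meiotic entry, ran from 0 to 48.8 CPM, with 1 count over all Cre-negative libraries (adjusted p = 0.00726). Syce1, of the central element of the synaptonemal complex, ran from 0.241 to 74.8 CPM, also with 1 Cre-negative count (adjusted p = 0.000733). Mnd1 was already measurable in littermates, while Stra8 was at 0 in Dnmt1cKO 5 and Syce1 held a single count in Dnmt1cKO 3. The other 13 tested members did not pass.

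Among pluripotency and two-cell stage genes, 3 of 13 tested members, of 28 in the table, were higher and 0 lower, with a median log2 fold change of 6.70 (5.82 with lower bounds). Dppa5a, a marker of pluripotent cells, measured 41.4, 17.8, 104, 12.8 and 0 CPM in Dnmt1cKO libraries, with 1 Cre-negative count (adjusted p = 0.00169). Zscan4f, of the telomere-linked Zscan4 cluster, measured 72.8, 19.7, 4.81, 40.6 and 0 CPM (adjusted p = 0.0249). Tcstv1, another two-cell stage gene, measured 0, 0, 44.7, 43.3 and 27.4 CPM (adjusted p = 0.0211). Each was at 0 in 1 or 2 knockout libraries, so the groups overlapped for all 3. All 3 have near-identical copies or a sequence partner in the table. In all, 37 of the 82 tested genes of the germline, X-linked and early embryo lists were higher, none was lower by edgeR, and they were 37 of the 119 higher genes. The share higher over all genes tested was 0.915%. In the genome-defence, meiosis and pluripotency lists 3, 1 and 1 tested members had 0 counts in every Cre-negative library. Members at 0 in littermates could not be called lower, and they passed the filter only through Dnmt1cKO or control libraries. Listed members that did not pass the filter are not among the 82, so the share of 37 in 82 depends on the filter.

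Imprinted genes are expressed from 1 parental allele through methylation marks set in the germline. Of 39 tested, 3 were higher and 0 lower, with 25 positive values and a median log2 fold change of 0.23. Over all genes tested, 0.915% were higher and 47.9% had positive values. Peg10, a paternally expressed retrotransposon-derived gene of the placenta, measured 747, 725, 266, 588 and 814 CPM in Dnmt1cKO libraries. Its Cre-negative lowest, median and highest values were 0.691, 19.21 and 32.2 CPM (a log2 fold change of 5.09 ± 0.54, adjusted p = 7.03e-07). Peg3, a paternally expressed zinc finger gene, measured 659.6, 959.6, 521, 654 and 714 CPM, against 142 to 413 CPM (a log2 fold change of 1.21 ± 0.27, adjusted p = 0.0211). In both the groups stood apart, with Dnmt1cKO 3 lowest of the knockout libraries. Mest measured 43.7, 58.4, 539, 462 and 33.9 CPM, against 14.5 to 46.5 CPM (a log2 fold change of 3.07 ± 0.61, adjusted p = 0.00712). Its high values lay in Dnmt1cKO libraries 3 and 4, those with the highest summed stroma markers, and without those 2 libraries its adjusted p was 0.55. The controls held 83.2 and 354 CPM of Mest and 39.5 and 89.2 CPM of Peg10.

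Genes that p53 switches on showed 4 higher members of 31 tested and 0 lower, with 25 positive values and a median log2 fold change of 0.51. Among all genes tested the shares were 0.915% higher and 47.9% positive. Ccng1, cyclin G1, measured 213, 561, 580.1, 463 and 274 CPM in Dnmt1cKO libraries, against a narrow Cre-negative range of 126 to 156 CPM (a log2 fold change of 1.58 ± 0.27, adjusted p = 0.00138). Trp53inp1, a stress-induced regulator of p53, measured 265, 284, 131, 334 and 129.6 CPM, against 23.5 to 111 CPM (a log2 fold change of 2.03 ± 0.41, adjusted p = 0.00872). Both separated the groups, by a small margin for Trp53inp1 in Dnmt1cKO libraries 3 and 5, and they were called in 23 of 24 and 24 of 24 alternative settings. Cdkn1a, the cyclin-dependent kinase inhibitor p21, measured 218, 55.6, 118, 24.2 and 87.4 CPM, against 1.03 to 24.9 CPM (adjusted p = 0.0401), and it kept its call in 11 of 24 alternative settings. Ephx1, microsomal epoxide hydrolase, measured 75.1, 2.71, 0.241, 25.4 and 0 CPM, with 1 Cre-negative count (adjusted p = 0.0212), and it kept its call in 13 of 20. Trp53 itself measured 4.28, 61.7, 47.1, 15.5 and 111 CPM, against 9.56 to 54.6 CPM, and did not pass (a log2 fold change of 0.38 ± 0.66, adjusted p = 0.899).

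Of 34 tested genes of the BCL2 family and apoptosis effectors, 1 was higher and 0 lower (median log2 fold change 0.09). It was Pmaip1, which encodes the BH3-only killer protein NOXA, at 392, 199.6, 176, 326 and 468 CPM in Dnmt1cKO libraries. Its Cre-negative lowest, median and highest values were 2.34, 34.1 and 62.3 CPM (a log2 fold change of 3.22 ± 0.50, adjusted p = 0.000405). The groups did not overlap, and the call held in 24 of 24 alternative settings. Bax, the pore-forming effector, also had all knockout libraries above all littermates (36.6 to 217 CPM against 17.0 to 36.2 CPM) but by a narrow margin, and did not pass (adjusted p = 0.248). None of 44 tested genes of DNA damage signalling and repair was called by edgeR in either direction (median log2 fold change -0.15); at p under 0.05 before adjustment it had 1 higher and 2 lower, with 0 called by DESeq2 and 3 lower by limma-voom. Of 46 cell cycle and replication genes (median log2 fold change 0.02) 1 was higher, Ccnd1. Cyclin D1 transcripts measured 53.1, 28.8, 76.0, 62.8 and 96.1 CPM in Dnmt1cKO and 0 to 12.02 CPM in Cre-negative libraries (adjusted p = 0.0211), and stood at 34.3 and 141 CPM in the controls.

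**Figure D3:**
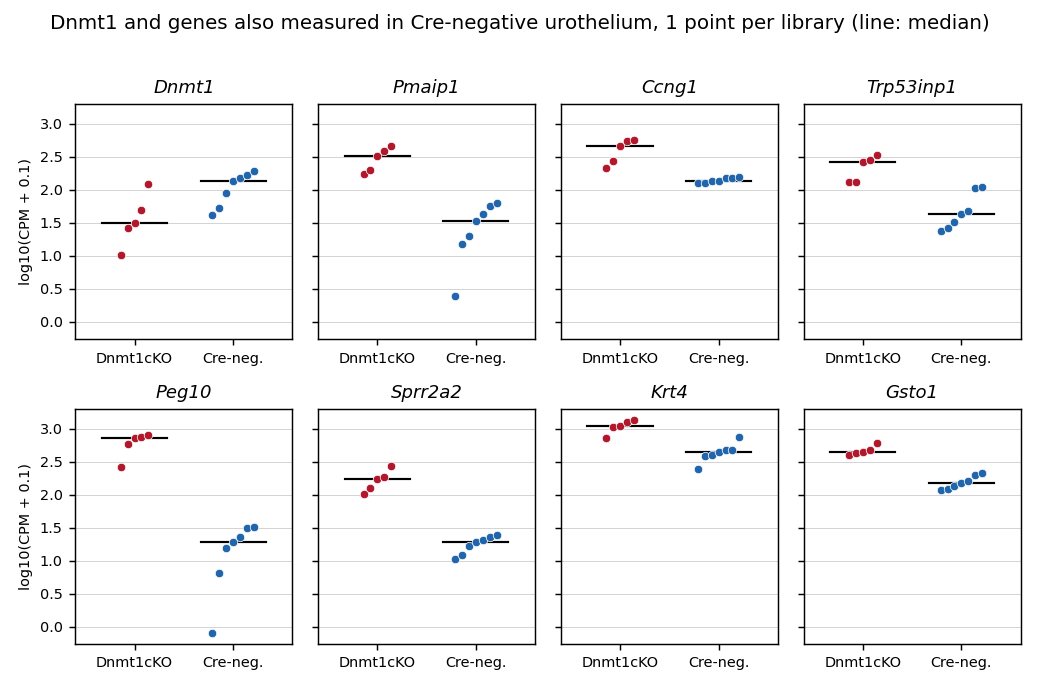
Level in each library, as log10(CPM + 0.1), of Dnmt1 and of 7 genes called higher that were also measured in littermates, in Dnmt1cKO (red, n = 5) and Cre-negative (blue, n = 7) urothelium, with points in order of value and a line at the group median. The groups overlap for Dnmt1 and Krt4 and not for Pmaip1, Ccng1, Trp53inp1, Peg10, Sprr2a2 and Gsto1.

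No member was called by edgeR in 3 further lists tied to methylation. They were the lists of the interferon response and double-stranded RNA sensing (29 tested, median log2 fold change 0.44), the repressors of retroviral and germline genes (33 tested, 0.02) and the methylation machinery (20 tested, -0.28). At p under 0.05 before adjustment these lists had 3 higher and 2 lower, 1 higher and 2 lower, and 2 higher and 2 lower genes. DESeq2 called 1 interferon gene higher and 1 repressor lower, and limma-voom called 1 gene of the machinery lower. Cxcl10, an interferon-induced chemokine, had the smallest p of the interferon list and was detected in Dnmt1cKO libraries 1 and 4 only, at 22.3 and 23.9 CPM (adjusted p = 0.11). Uhrf1, which brings DNMT1 to hemimethylated DNA, had all knockout libraries above all littermates (194 to 295 CPM against 102 to 194 CPM) without passing (adjusted p = 0.239). The margin was below 1 CPM.

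The stress response, cholesterol and hypoxia lists held no gene called by edgeR. The integrated stress and unfolded protein response had 22 positive values of 30, beside 47.9% of all genes, with 0 called by edgeR, 5 higher at p under 0.05 before adjustment, 1 higher by DESeq2 and 2 by limma-voom. Hspa5, the endoplasmic reticulum chaperone BiP, measured 1654, 1592, 1859.7, 1756 and 1644 CPM in Dnmt1cKO libraries, all above the Cre-negative range of 782 to 1387 CPM (a log2 fold change of 0.68 ± 0.20, adjusted p = 0.115). Cholesterol and fatty acid synthesis had 28 negative values of 29 and a median log2 fold change of -0.75, beside 51.8% negative over all genes. It also had 0 called by edgeR, with 9 lower at p under 0.05 before adjustment, 5 by DESeq2 and 3 by limma-voom. Scd2, a fatty acid desaturase, measured 625, 1069, 432, 767 and 716 CPM, against 744 to 1809.7 CPM (a log2 fold change of -1.02 ± 0.26, adjusted p = 0.0536), and Hmgcs1, an enzyme of the cholesterol pathway, was below all littermates without passing (adjusted p = 0.141). Hypoxia and glycolysis had 23 negative values of 29 (median log2 fold change -0.57) and 0 called by edgeR, with 1 higher and 8 lower at p under 0.05 before adjustment, 2 lower by DESeq2 and 1 by limma-voom. Pdk1, a kinase that inhibits pyruvate dehydrogenase, stood at 40.0 to 171 CPM against 133 to 305 CPM (adjusted p = 0.11). Members of such a pathway move together within a library, so these shares describe 5 against 7 pools and carry no test. The glutathione and NRF2 list, 27 tested, held 1 gene called higher, Gsto1, a glutathione transferase, at 425, 483, 609.7, 398 and 454 CPM against 118 to 212 CPM (a log2 fold change of 1.59 ± 0.25, adjusted p = 0.000492).

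**Figure D4:**
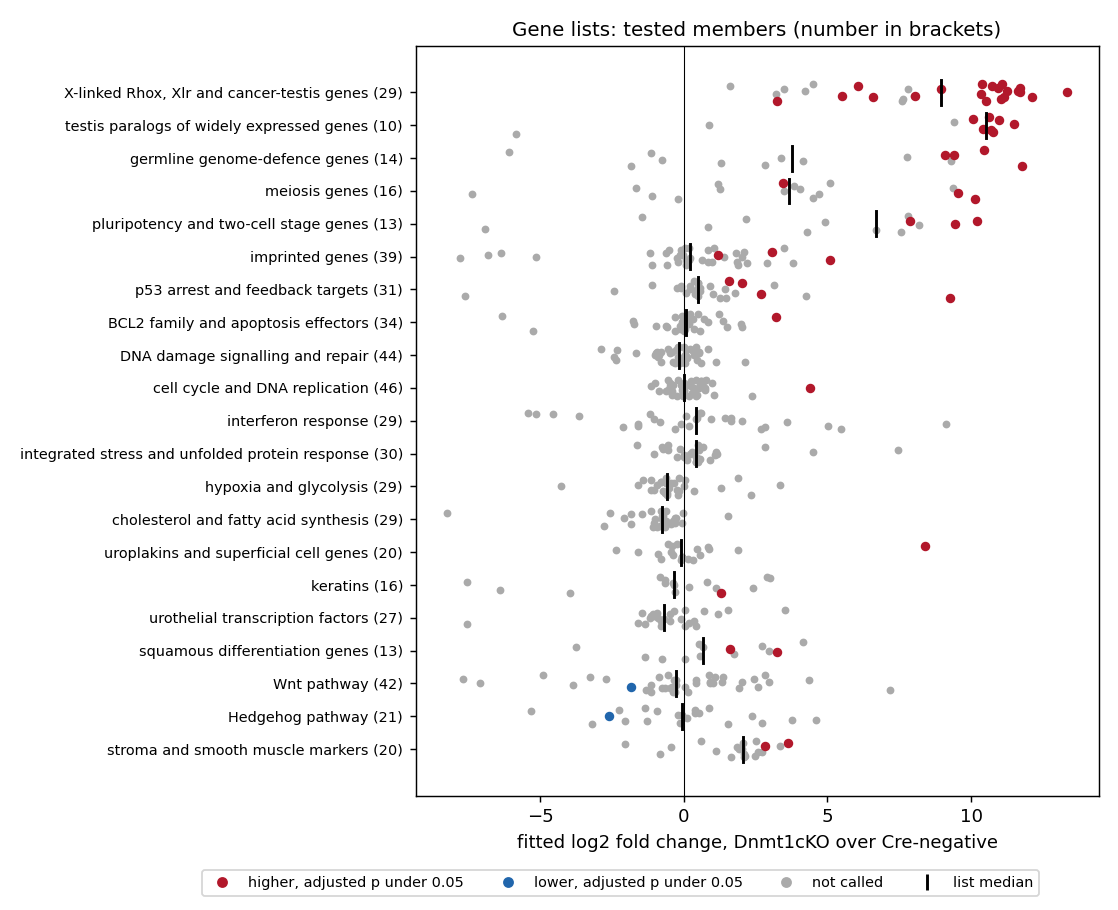
Fitted log2 fold change (Dnmt1cKO over Cre-negative, x axis) of every tested member of 21 gene lists, 1 point per gene; red and blue mark genes called higher and lower by edgeR and bars mark list medians. Called genes gather in the X-linked and germline lists, and the medians of the other lists lie within 1 of 0 apart from stroma markers at 2.07.

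Over the alternative settings, 24 for most lists, the sign of the median turned at least once in 23 of the 41 lists, among them imprinted genes, the BCL2 family, the cell cycle, glutathione genes, interferon genes, repressors, uroplakins, keratins, junction genes and the Wnt, Hedgehog, FGF, TGF-beta and retinoic acid pathways. Among the 23 were also lists with medians far from 0: stroma markers (2.07 as reported, -0.17 to 2.54 over the settings, the lowest with the stroma covariate), beta protocadherins (-2.02, -4.60 to 5.09), endothelium (-1.22, -3.16 to 1.30), immune cells (1.82, -3.66 to 3.36), erythroid cells (1.79, -0.27 to 2.43) and neural markers (1.59, -1.91 to 2.173). The median kept its sign in every setting for the X-linked list, the 4 other germline and early embryo lists, p53 targets, DNA damage genes, the stress response, hypoxia and glycolysis, cholesterol and fatty acid synthesis, urothelial transcription factors and squamous differentiation genes.

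Genes of urothelial identity had few calls. Of 20 uroplakin and superficial cell genes 1 was higher and 0 lower (median log2 fold change -0.08), and the 1 was Ptgs1, a prostaglandin synthase, at 39.7, 13.1, 0, 78.1 and 0.435 CPM against 0 to 0.127 CPM (adjusted p = 0.0143). The uroplakins, which build the apical plaque, had Upk1a at 495 ± 151 CPM and 647 ± 102 CPM and Upk3a at 314 ± 187 CPM and 324 ± 117 CPM in Dnmt1cKO and Cre-negative libraries (SD; n = 5 and 7), adjusted p = 0.544 and 0.986. Upk2 was at 0 in Dnmt1cKO 3. At p under 0.05 before adjustment the 20 genes had 3 higher and 2 lower, with 1 higher by DESeq2 and 1 by limma-voom. In 1 of the 20 all knockout libraries stood below all littermates. Of 27 urothelial transcription factors none was called by edgeR, but 18 values were negative, the median was -0.70, and 3 genes had all knockout libraries below all littermates, as 0.999% of all genes did. They were Gata3, at 34.0, 66.5, 20.2, 32.9 and 94.8 CPM against 97.9 to 209.8 CPM (a log2 fold change of -1.58 ± 0.41, adjusted p = 0.0562), Rxra (adjusted p = 0.136) and Tbx3 (adjusted p = 0.0828). At p under 0.05 before adjustment the list had 1 higher and 8 lower, with 1 higher and 2 lower by DESeq2 and 0 by limma-voom.

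Some genes of stratified and squamous epithelium were higher. Of 16 keratins, Krt4, a keratin of stratified mucosa, was higher and 0 were lower: it measured 1294, 1115, 1057, 728 and 1370.4 CPM in Dnmt1cKO libraries, against 250.1 to 753 CPM (a log2 fold change of 1.29 ± 0.26, adjusted p = 0.00872), with only Dnmt1cKO 4 inside the littermate range. Over the 16 keratins the median log2 fold change was -0.32, with 9 negative values. At p under 0.05 before adjustment 3 keratins were higher and 4 lower. DESeq2 called 1 keratin higher and 0 lower, and limma-voom called 1 higher and 1 lower. Of 13 squamous differentiation genes 2 were higher and 0 lower (median log2 fold change 0.66). Sprr2a2, a precursor of the cornified envelope with a near-identical overlapping copy, measured 128, 272, 102, 174 and 188 CPM, against 10.5 to 24.6 CPM (a log2 fold change of 3.26 ± 0.41, adjusted p = 1.6e-05), and it was called in 24 of 24 alternative settings. Ly6d, a surface protein of keratinocytes, measured 258, 131, 242, 378 and 341 CPM, against 22.4 to 146 CPM (adjusted p = 0.0496), and was called in 7 of 24. Sprr2a2 separated the groups widely and Ly6d overlapped through Dnmt1cKO 2. Of 34 adhesion and junction genes 1 was lower, Cldn1, a claudin of tight junctions, which had 0 counts in all Dnmt1cKO libraries and 0, 18.5 and 28.7 CPM as lowest, median and highest Cre-negative values (at least 142-fold lower, adjusted p = 0.0371). The Cre-negative 2 library was also at 0 for Cldn1, and the call held in 10 of 24 settings. At p under 0.05 before adjustment the 34 junction genes had 0 higher and 4 lower, with 2 lower by DESeq2 and 1 by limma-voom.

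The genes lower in Dnmt1cKO urothelium included signalling ligands of the urogenital tract. Shh, the Hedgehog ligand secreted by the urothelium towards the mesenchyme, measured 32.5, 98.3, 3.85, 65.2 and 18.3 CPM in Dnmt1cKO libraries. Its Cre-negative lowest, median and highest values were 168, 264 and 373 CPM (a log2 fold change of -2.60 ± 0.52, adjusted p = 0.00726). Every knockout library stood below every littermate, and the controls, which share the Shhcre allele, held 156 and 61.8 CPM, also below every littermate. Wnt4, a Wnt ligand of the urogenital tract, measured 149.6, 116, 97.4, 37.9 and 42.2 CPM, against Cre-negative values of 234, 297 and 502 CPM (a log2 fold change of -1.83 ± 0.35, adjusted p = 0.00503). All 5 were below the littermates, as were the controls at 190.3 and 122 CPM. In this comparison the Shhcre allele and the loss of Dnmt1 go together, and their parts in these values cannot be told apart. Shh was the 1 called gene of 21 in the Hedgehog list and of 19 urogenital sinus genes. Wnt4 was the 1 called of 42 Wnt pathway genes, and median log2 fold changes of these lists were -0.06, -0.64 and -0.28.

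Ecm1, a secreted matrix glycoprotein, measured 0, 9.90, 0.481, 0 and 0 CPM in Dnmt1cKO libraries, against Cre-negative values of 49.9, 99.9 and 258 CPM (a log2 fold change of -5.88 ± 0.98, adjusted p = 0.00101). Glb1l2, a galactosidase-like gene, measured 11.1, 25.6, 0, 17.9 and 0.435 CPM, against 81.9, 112 and 144 CPM (a log2 fold change of -3.34 ± 0.76, adjusted p = 0.0249). Tbc1d8, which encodes a Rab GTPase-activating domain, measured 0, 0.833, 0, 0.242 and 0 CPM, against 11.1, 37.3 and 47.1 CPM (a log2 fold change of -6.93 ± 1.31, adjusted p = 0.00406). Most knockout libraries were at or near 0 for Ecm1 and Tbc1d8, with Dnmt1cKO 2 the highest in all 3 genes. Gins3, a subunit of the replicative helicase, held 4 counts over the Dnmt1cKO libraries and 6.64 to 35.8 CPM in littermates (adjusted p = 0.0211). P4ha3, a collagen prolyl hydroxylase subunit, held 4 counts, against 6.50 to 52.8 CPM (adjusted p = 0.0249). Slc16a13, Dnajb2 and Krtcap3 each held 1 count, in Dnmt1cKO 2, and were 274, 264 and 302-fold lower (95% counting intervals 49 to 10800, 47.3 to 10400 and 54.0 to 11900). These 3 had Cre-negative medians of 11.6, 9.51 and 12.8 CPM, so they were low in the littermates too. Krtcap3 was called in 8 of 24 alternative settings and in 0 of the 12 that left out 1 library, Slc16a13 in 11 of 24 and 3 of 12, and Dnajb2 in 18 of 24 and 10 of 12. Ampd3, an AMP deaminase, and the zinc finger gene Zfp444 had 0 knockout counts and were at least 90.7-fold and 85.3-fold lower (adjusted p = 0.048 and 0.048).

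**Figure D5:**
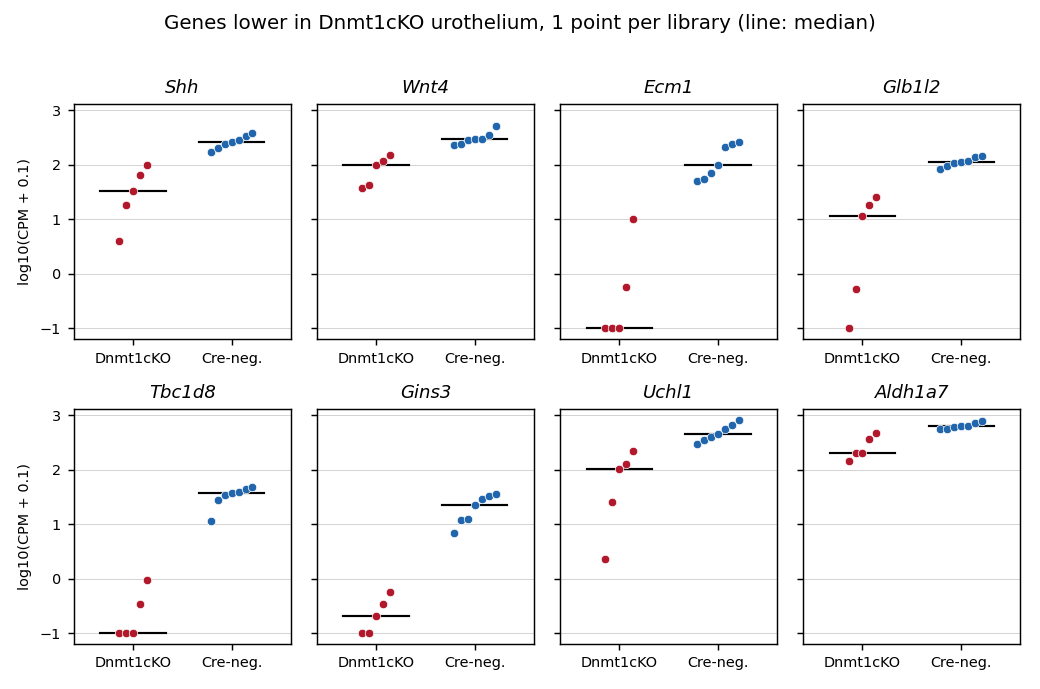
Level in each library, as log10(CPM + 0.1), of 8 genes called lower, in Dnmt1cKO (red, n = 5) and Cre-negative (blue, n = 7) urothelium, with points in order of value and a line at the group median. All Dnmt1cKO points lie below all Cre-negative points in each panel; Wnt4 and Aldh1a7 remain measurable in every knockout library while Ecm1, Tbc1d8 and Gins3 are at or near 0 in most.

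Lower genes that stayed well measured in both groups had smaller changes. Uchl1, a ubiquitin hydrolase of neurons and other cells, measured 126, 102, 2.16, 219.7 and 25.2 CPM, against 292, 456 and 815 CPM (a log2 fold change of -2.40 ± 0.58, adjusted p = 0.0377). Aldh1a7, an aldehyde dehydrogenase, measured 199, 366, 199, 141 and 477 CPM, against 553, 630.4 and 783 CPM (a log2 fold change of -1.20 ± 0.29, adjusted p = 0.033). Sema3f, a secreted semaphorin, measured 47.7, 79.7, 26.9, 52.2 and 18.3 CPM, against 99.3, 126 and 171 CPM (a log2 fold change of -1.56 ± 0.38, adjusted p = 0.0435). In all 3 the groups stood apart, and the Uchl1 value of Dnmt1cKO 3 was far below the rest. Of the lower genes named, Shh, Uchl1, Glb1l2, Ampd3 and Tbc1d8 (the last with the ribosomal protein gene Rpl31) overlap antisense exons in GENCODE M21, as do Ccnd1, Cdkn1a, D1Pas1, Jun, Mest, Ptgs1, Tagln, Tuba3a, Uba1y and Zfp706 among the higher ones, and reads from the 2 strands cannot be told apart because the counting strand is not given in the sources used here. Ecm1 and Wnt4 were the 2 of 24 lower genes called in all 24 alternative settings, as were 39 of the 119 higher genes. Wnt4 shares transcript segments with 53 other genes of the table and Zfp444 with 17, so some of their reads could be divided among them. Uchl1 was called in 9 of 24, Aldh1a7 in 10 of 24, and Sema3f, Ampd3 and Zfp444 in 7 of 24 each. With 1 library left out, counts of lower genes ran between 5 without Cre-negative 7 and 84 without Dnmt1cKO 2, and over all settings between 3 with the replicate block and 292 by limma-voom. Dnmt1cKO libraries were the shallower ones (median total 4589475, against 8439643 in Cre-negative), and without the 3 shallowest libraries 20 genes were lower, of which 8 were among the 24; the part of depth in values at 0 was not tested.

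Other developmental lists held no called gene by edgeR. These were the FGF and EGF list (21 tested, median log2 fold change 0.10), the TGF-beta and BMP pathway (32, -0.04), the retinoic acid pathway (17, 0.52), the Notch pathway (18, 0.41), Hox genes (29, -0.75), clustered beta protocadherins (7, -2.02) and Wolffian duct markers (20, -0.25, or 0.05 with silent genes at their bound). At p under 0.05 before adjustment they held 2, 4, 2, 3, 2, 1 and 1 higher and 2, 3, 2, 0, 4, 2 and 4 lower genes in that order. DESeq2 called 2, 2, 0, 2, 1, 0 and 0 higher and 0, 0, 1, 0, 1, 0 and 1 lower, and limma-voom called 1, 0, 0, 2, 1, 0 and 0 higher and 0, 0, 0, 0, 1, 0 and 1 lower. Areg, which encodes the EGF receptor ligand amphiregulin, measured 59.1, 29.4, 51.5, 91.1 and 41.8 CPM in Dnmt1cKO libraries, against 0 to 11.2 CPM (a log2 fold change of 4.99 ± 1.34, adjusted p = 0.0734). The groups did not overlap, but the gene did not pass.

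Transcripts of stroma and smooth muscle differed between libraries. The 20 markers summed to 305 CPM, 2411 CPM, 12041 CPM, 7487 CPM and 2868 CPM in Dnmt1cKO libraries 1 to 5, to 241 to 3384 CPM in Cre-negative libraries and to 3551 and 12960 CPM in the controls. Dnmt1cKO libraries 3 and 4 were above all littermates and Dnmt1cKO 1 was near the lowest of them. Of the 20 markers 2 were higher and 0 lower, with a median log2 fold change of 2.07: Tagln at 4.28, 31.4, 161, 446 and 83.1 CPM against 2.59 to 28.5 CPM (adjusted p = 0.0129) and Myh11 at 36.5, 123, 992, 410.1 and 368 CPM against 8.87 to 167 CPM (adjusted p = 0.0242). Both are contractile proteins of smooth muscle, and without Dnmt1cKO 3 and 4 neither passed (adjusted p = 0.378 and 0.305). Ccnd1, Nefl, Myh11, Cald1, Sparc and Igfbp4 were the 6 of 119 higher genes whose control mean was at or above the Dnmt1cKO mean. Without Dnmt1cKO 3 and 4, 96 genes were higher, 84 of them among the 119, and the X-linked list kept 16 called of 26 tested.

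No marker of mesothelium (9 tested), endothelium (11), immune cells (7), erythroid cells (7) or gut epithelium (6) was called by edgeR. At p under 0.05 before adjustment these lists had 2, 1, 1, 5 and 1 higher and 0, 1, 1, 0 and 1 lower genes, and DESeq2 called 1, 0, 0, 2 and 1 higher while limma-voom called 0. Summed immune markers reached 119 CPM in Dnmt1cKO 3, against at most 20.9 CPM in Cre-negative libraries, with Csf1r, a macrophage receptor, at 54.4 CPM in that library and at most 0.967 CPM in littermates (adjusted p = 0.163 for the groups). Summed endothelium markers reached 135 CPM in Dnmt1cKO 3, against at most 61.1 CPM in Cre-negative libraries. Summed erythroid markers reached 1761 CPM and 1556 CPM in Dnmt1cKO 3 and 4, against at most 365 CPM in Cre-negative libraries. Dnmt1cKO 3 and 4 were also the libraries of the group highest in stroma markers, and the part of these transcripts in the results was not tested. The immune markers Cd68, Aif1, C1qc, Lyz2, Tyrobp, Fcer1g and Cd52 were at 0 in every Dnmt1cKO library, and Tyrobp and Cd52 in every Cre-negative one. Among gut markers Cdx1, Cdx2 and Muc2 were at 0 in both groups. Of 12 tested neural and glial markers 0 were higher and 1, Uchl1, was lower, with a median log2 fold change of 1.59; 2 were higher and 1 lower at p under 0.05 before adjustment, DESeq2 called 1 higher and 1 lower, and limma-voom 0 higher and 1 lower. Outside that list, and chosen after their values were seen, the neurofilament genes Nefl and Nefm and the intermediate filament gene Nes were called higher; the exons of Nefl and Nefm overlap on opposite strands. Their log2 fold changes were 3.42 ± 0.81, 3.60 ± 0.89 and 3.44 ± 0.86 (adjusted p = 0.0311, 0.0462 and 0.0474). In the controls Nefl measured 31.5 and 150.1 CPM, Nefm 56.3 and 199.6 CPM and Nes 33.8 and 111 CPM, and without Dnmt1cKO 3 and 4 none of the 3 passed (adjusted p = 0.206, 0.919 and 0.0763). Of 5 Y-linked genes in a marker list 0 were called by edgeR, with 1 higher at p under 0.05 before adjustment, by DESeq2 and by limma-voom. The 26 immediate early and heat shock genes of the table summed to 7899 to 10670 CPM in Dnmt1cKO and 4450.1 to 6879 CPM in Cre-negative libraries, without overlap. Of them Jun, an immediate early transcription factor, measured 179, 117, 161, 82.4 and 134 CPM, against 0.637 to 40.6 CPM (adjusted p = 0.0211), with 46.0 and 162 CPM in the controls. Hsp90aa1, the inducible HSP90 chaperone, measured 2668, 2862, 2339.6, 2930.5 and 4611 CPM, against 1056 to 1915 CPM (a log2 fold change of 0.92 ± 0.21, adjusted p = 0.0258), and was called in 15 of 24 alternative settings and in 6 of the 12 that left out 1 library (adjusted p up to 0.119). Tissue handling was not measured apart, and its part in these 2 results was not tested.

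Some of the firmest higher genes belonged to no list. Hist4h4, a histone H4 gene, measured 2211, 4187, 2983, 4276 and 4786 CPM in Dnmt1cKO libraries. Its Cre-negative lowest, median and highest values were 1.63, 1.91 and 4.91 CPM, and the controls held 7.19 and 23.3 CPM (a log2 fold change of 10.49 ± 0.42, adjusted p = 4e-15). It was high in every knockout library, and the groups were far apart. It shares transcript segments with 3 other genes of the table, so some of its reads could be divided among them. Sohlh2, a transcription factor of early germ cells, measured 85.6, 67.6, 22.9, 56.5 and 92.2 CPM, against 0 to 0.229 CPM (a log2 fold change of 9.86 ± 1.24, adjusted p = 1.42e-05). Its log2 fold change was 6.87 with Cre-negative and control libraries as 1 group, and the call held. Hp, which encodes the haemoglobin-binding protein haptoglobin, measured 65.9, 13.6, 27.4, 106 and 61.3 CPM in Dnmt1cKO libraries and was at 0 in all littermates (at least 928-fold higher, adjusted p = 7.52e-05), with 2.28 and 11.2 CPM in the controls. Psg23, a pregnancy-specific glycoprotein of placental trophoblast, measured 263, 83.2, 71.2, 735 and 134 CPM, against 0 to 0.691 CPM (a log2 fold change of 10.21 ± 0.84, adjusted p = 8.52e-09). Serpinb1c, a serine protease inhibitor gene, measured 46.5, 5.83, 0.481, 37.7 and 50.9 CPM and was at 0 in littermates (at least 435-fold higher, adjusted p = 0.00872). Haptoglobin and Psg23 were high in every knockout library, and Serpinb1c was near 0 in Dnmt1cKO 3. Olfm4, an olfactomedin of gut and prostate epithelium, measured 153, 95.4, 137, 74.9 and 143 CPM, against 0 to 6.37 CPM (a log2 fold change of 6.92 ± 1.26, adjusted p = 0.00283).

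A further set was expressed in littermates and several-fold higher in every knockout library. Ces2b, a carboxylesterase, measured 702, 419, 226, 650.3 and 317 CPM, against Cre-negative values of 11.8, 19.4 and 35.1 CPM (a log2 fold change of 4.47 ± 0.35, adjusted p = 2.65e-09). Zfp706, a small zinc finger gene, measured 1279, 1279.7, 682, 2174 and 1474 CPM, against 108, 144 and 253 CPM (a log2 fold change of 3.16 ± 0.27, adjusted p = 1.82e-08). Vmn1r58, a vomeronasal receptor gene with a near-identical copy, measured 546, 377, 575, 821 and 450.1 CPM, against 24.2, 31.4 and 65.2 CPM (a log2 fold change of 3.75 ± 0.32, adjusted p = 1.51e-08). Ces2b, Zfp706 and Vmn1r58 were each called in all 24 alternative settings, and their control values (31.8 and 29.6 CPM, 165 and 179 CPM and 50.6 and 35.9 CPM) lay within the littermate range. Zfp706 shares transcript segments with 7 other genes of the table and Vmn1r58 with 4, so some of their reads could be divided among them. Grk4, a receptor kinase of testis and kidney, measured 156, 659, 378, 162 and 299 CPM, against 8.24, 11.6 and 26.0 CPM (a log2 fold change of 4.58 ± 0.41, adjusted p = 3.7e-08). Lars2, the mitochondrial leucyl-tRNA synthetase, was of another kind: it measured 5708, 692, 1118, 2644 and 52737 CPM, against 304, 1289.6 and 1808 CPM (a log2 fold change of 3.56 ± 0.71, adjusted p = 0.00726). Its value in Dnmt1cKO 5 was far above every other library, Dnmt1cKO 2 and 3 lay inside the littermate range, and without the 3 shallowest libraries, Dnmt1cKO 5 among them, it did not pass (adjusted p = 0.527). Of the 119 higher genes, 13 carried symbols of uncharacterised loci.

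How alike the libraries were differed by group, as a description. Spearman correlations across genes between library pairs were 0.643 to 0.775 within Dnmt1cKO (10 pairs, median 0.693), 0.774 to 0.937 within Cre-negative (21 pairs, median 0.859) and 0.632 to 0.888 between the groups (35 pairs, median 0.733). The pairs share libraries, and the values depend on depth, so no test is given. Dnmt1cKO 2, the deepest of its group, was the closest to the littermates (median 0.853) and Dnmt1cKO 3 the farthest (median 0.681). In Dnmt1cKO 2 the lower genes were also least low: 18 of 24 were below the lowest littermate, against 20 to 22 in the other 4 knockout libraries, and 4 were at 0, against 8 to 11.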

How the data were processed

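Polyadenylated RNA of 14 urothelium lysates at embryonic day 15.5 was sequenced after random priming and PCR, per the labels' protocols, which name no molecular identifiers. The authors deposited expected counts per gene symbol, and the submitters' processing notes name RSEM 1.2.3, Bowtie 0.12.9, bcl2fastq 2.17.1.14 and the build mm10; the gene annotation and counting strand are not given in the sources used here. RSEM divides reads that fit several genes, so near-identical copies share counts. Of all values of a library, those at 0 included, 7.31% to 21.9% were not whole.

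Expected counts were rounded. Genes passed edgeR's expression filter by group, libraries were scaled by TMM, and all 14 libraries were fitted together (edgeR 4.0.16 quasi-likelihood test, R 4.3.3) with the contrast Dnmt1cKO minus Cre-negative. P-values were Benjamini-Hochberg adjusted over 13011 genes, with a threshold of 0.05. The procedure was tested on simulated counts with the same spread in both groups, in which only genes clearly measured in Cre-negative libraries were changed. Genes at or near 0 in littermates and the largest folds were not covered by that test. Total counts of 2520509 to 13131921 put the level of 3 counts at 0.228 to 1.19 CPM, and intervals cover counting error only. Folds against a group at 0 use 3 counts over the group as the floor.

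As alternatives, scaling was changed to upper-quartile or RLE, the tool to limma-voom (limma 3.58.1) or DESeq2 1.42.0, and the filter loosened or tightened. Further ones were the 12 libraries alone, a replicate block, a stroma covariate, Cre-negative and control libraries as 1 group, and libraries left out. Members and gene lists were chosen with earlier results of these data known. Named by rule were Dnmt1, Trp53, Shh, the 14 largest rises and 12 largest falls whose higher group averaged 5 CPM or more and whose groups did not overlap, and up to 3 called members of each list (or the member with the smallest p); other genes named were chosen after their values were seen. Near-identical partners shared 95% identity over at least 50% of the shorter transcript (BLAST+ 2.17.0). The Cre-positive controls entered no comparison of their own, and 1 alternative joined them to the Cre-negative libraries.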

Additional observations from a re-analysis of the deposited data

Results flagged for a closer look

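Of 172 groups of values examined, 30 had a library that stood apart from the rest of its group by Dixon's ratio, which chance gives in about 1 of 20 groups of continuous values. That rate says nothing for 13 of the 30, in which 1 library held counts and the rest of its group were at 0. Among Dnmt1cKO libraries, Dnmt1cKO 3 stood low for Tex19.1 at 61.3 CPM, for Rhox2d at 0.722 CPM and for Syce1 at 0.241 CPM. Dnmt1cKO 2 stood high for Ecm1 at 9.90 CPM and for Dnajb2, Krtcap3 and Slc16a13 at 0.104 CPM each, where the other knockout libraries were at 0.

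Among Cre-negative libraries, replicate 2 stood low for the summed Y-linked genes at 2.39 CPM, for Scd2 at 744 CPM and for Cldn1 at 0 CPM. The same library stood high for Krtcap3 at 37.5 CPM, Tex19.1 at 3.41 CPM, and Slc25a31 and Tff3 at 0.341 CPM each. Replicate 5 was low for Tbc1d8 at 11.1 CPM and high for Tuba3b at 0.229 CPM and for Ephx1, Hba-x, Stra8 and Tcstv1 at 0.115 CPM each. Replicate 6 was low for Trp53 at 9.56 CPM and Zfp444 at 0.127 CPM, and high for Areg at 11.2 CPM and for Syce1 and Tex13 at 0.127 CPM each. Replicate 4 was high for Hoxc10 at 1.53 CPM and Csf1r at 0.967 CPM. Replicate 1 was low for Hsp90aa1 at 1056 CPM and high for Dppa5a at 0.0722 CPM, and replicate 7 was high for Pcdhb17 at 0.994 CPM. Values below 0.5 CPM in these libraries rest on 1 or 2 counts.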

How the results depend on the processing

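Against 119 higher and 24 lower genes, DESeq2 called 323 and 230, limma-voom 162 and 292, no filter on low counts 205 and 44, the fit of the 12 libraries alone 76 and 10, and a stroma covariate 81 and 9. With the replicate block 46 genes were higher and 3 lower (Dnmt1 at -1.49). The labels do not say whether a replicate number marks a litter or day. Same-numbered libraries correlated at -0.162 to 0.022 around their group means, which does not settle whether the numbers pair the samples. With the stroma covariate 80 of the 119 higher genes and 6 of the 24 lower genes stayed called. An alternative chosen after seeing the data, without Dnmt1cKO 3 and 4, called 96 and 38, of which 84 and 8 were among the 119 and the 24. Another that was not planned, with Cre-negative and control libraries as 1 group, called 84 and 25. Of 47 named called genes tested in it, 39 stayed called. Those that did not pass included Ccnd1, Mest, Jun and Hp (edgeR adjusted p = 0.738, 0.391, 0.265 and 0.103). Leaving out 1 library at a time gave 88 to 154 higher and 5 to 84 lower genes. Dnmt1 ran from -1.998 to -1.05 with 1 library left out and passed with the stroma covariate (-2.30, adjusted p = 0.0373; range over alternatives 0.0373 to 0.785). Among named genes not called, the sign turned for Aldh1a2 (-0.24) and Pecam1 (-1.07) without Dnmt1cKO 3 and 4, for Pecam1 with the covariate (-0.40), and for Trp53 with the block (-0.22) and without Dnmt1cKO 5 (-0.19; up to 0.68 with another library left out). The causes were not tested. Of the 119 higher genes, 72 were called in all 12 settings that left out 1 library, and 4 of the 24 lower genes were (Ecm1, Shh, Tbc1d8 and Wnt4). Depth limits the values at 0: 3 counts are 0.313 to 1.19 CPM in Dnmt1cKO and 0.232 to 0.964 CPM in Cre-negative libraries.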
